A study of Emberiza melanocephala with 4 samples.

Results

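The 4 genes described here encode calcium-binding proteins that are known from neurons: CALB1 (calbindin), CALB2 (calretinin), NCS1 (neuronal calcium sensor 1) and HPCA (hippocalcin). They were chosen by name, as genes whose reference name appears in at least 1 of the 4 deposited transcript files, and all 4 were found among 2239 genes with a reference match, 1509 of which carried a symbol. They had been picked with their levels in these libraries already known, so those levels are given as a description and carry no test.

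The data are RNA-seq of the black-headed bunting (Emberiza melanocephala), a songbird that migrates and breeds seasonally. RNA labelled as testis came from birds caught from the wild, and 4 libraries were made, 1 for each testicular state that the labels give: sensitive, then early stimulated, then late stimulated, then refractory. In birds that breed by day length, the sensitive state is usually the one in which long days can start gonadal growth, and the refractory state the one in which they no longer maintain it. No treatment, genotype, age or number of birds per library is given in the sources used here, so the state is the difference the labels name. Each state has 1 library, without a replicate, and every difference below describes these libraries.

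All 4 proteins bind calcium through EF-hands, a helix-loop-helix fold. Calbindin and calretinin are paralogs that buffer calcium inside cells. Calbindin is also known in birds from the intestine and kidney, where vitamin D induces it, and from the shell gland, and calretinin is also known from Leydig cells of the mammalian testis. In the retina of several vertebrates both mark subsets of horizontal, amacrine and ganglion cells. NCS1 and hippocalcin belong to the family of neuronal calcium sensors, which carry a lipid anchor and pass a calcium signal on to channels, kinases and the release machinery. Hippocalcin is best known from pyramidal cells of the hippocampus.

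Levels are given in FPKM units, as coverage per exon base scaled by the aligned bases of the library, and count each transcript that lies over the exons on the gene's strand or has no strand. The aligned bases of sensitive were 120.5 Mb, those of early stimulated 200.8 Mb, those of late stimulated 428.4 Mb and those of refractory 318.1 Mb. Where 4 values follow each other below, they keep this order. An assembled transcript that matched no reference was listed only from a mean coverage of 2.5, so that the listing floors were 20.8, 12.5, 5.84 and 7.86 FPKM. A gene listed at 0 may therefore still be present below the floor. The floor is no strict bound for a gene, since transcripts with a reference match were listed below it. The median covered gene in sensitive was at 19.4 FPKM. The floor also holds per transcript, while a gene's value is an average over all its exons. The shortest transcript listed without a match had 200 bp in each library, so a shorter one could go unlisted at any coverage. Testis markers were listed for this report with earlier results of these data known. Of these, 1 of 5 Sertoli genes, 0 of 5 Leydig genes and 1 of 5 germ-cell genes carried a name in the files. In sensitive INHA, an inhibin subunit, had 3.81 FPKM and TDRD6, a germ-granule protein, had 1.82 FPKM, and both were listed at 0 in the other libraries. Both values lie under the floors of those libraries, so a 0 there need not mean absence. Photoreceptor markers, by contrast, were abundant in the other 3 libraries, so the named markers do not bear out the labelled tissue there. In sensitive they were listed at 0, and INHA and TDRD6 alone do not settle the tissue. A gene without a name need not be silent. Each level below is that of a library with the given label, not an established level in testis.

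CALB2 stood highest of the 4 genes. It lies on the minus strand of scaffold JH603200.1 of the collared flycatcher assembly FicAlb_1.4, from 6382506 to 6389069, with 11 exons of 1373 bp in all (ENSFALG00000007295). Its level was 0 in the library labelled sensitive, 344 FPKM in early stimulated, 241 FPKM in late stimulated and 341 FPKM in refractory. On this value refractory was at 0.993 times early stimulated, and late stimulated lay below both. The order of the libraries depends on the exon bases used, since 53.0% of them were listed in early stimulated. Over the 728 bases listed in all 3 libraries CALB2 stood at 648 FPKM in early stimulated, 333 FPKM in late stimulated and 450 FPKM in refractory. By the median over exons it stood at 252, 206 and 177 FPKM, with refractory lowest. Among covered genes CALB2 ranked 42nd of 1761 in early stimulated, 68th of 1852 in late stimulated and 52nd of 1864 in refractory. It made up 68.5%, 72.2% and 70.3% of the summed level of the 4 genes in these libraries.

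CALB1 came next. It lies on the minus strand of scaffold JH603199.1 from 1851976 to 1871872, with 10 exons of 4321 bp in all (ENSFALG00000005253), of which the last alone has 3620 bp. The level was 0 in the library labelled sensitive, 105 FPKM in early stimulated, 80.2 FPKM in late stimulated and 59.8 FPKM in refractory. Calbindin was thus highest in early stimulated and lowest in refractory among the libraries in which it was covered. Over the bases listed in all 3 it was highest in late stimulated instead, as given below. The ratio of CALB2 to CALB1 was 3.26 in early stimulated and 3.004 in late stimulated, and 5.70 in refractory.

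NCS1, the sensor known for its part in transmitter release, lies on the plus strand of scaffold JH603212.1 from 2223545 to 2226758, with 6 exons of 600 bp (ENSFALG00000001441). It was at 0 in the library labelled sensitive, 37.8 FPKM in early stimulated, 12.6 FPKM in late stimulated and 52.8 FPKM in refractory. The late stimulated value was the lowest of the covered ones, at 0.334 times early stimulated, and it rested on 34.3% of the exon bases, since a transcript over the last 3 exons was all that was listed there.

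HPCA, the hippocalcin gene, lies on the minus strand of scaffold JH603214.1 from 1402019 to 1404139, with 3 exons of 1200 bp (ENSFALG00000000586). It was listed at 0 in the libraries labelled sensitive and late stimulated, at 14.7 FPKM in early stimulated and at 31.6 FPKM in refractory. Both sensors rested on little signal. HPCA had 3553 aligned bases over its exons in early stimulated and 12046 in refractory, and NCS1 4548 and 10069, against 94770 and 149124 for CALB2. Late stimulated was the most deeply sequenced library, with the lowest floor, and it was the only one of the 3 with photoreceptor coverage in which HPCA had none. In refractory HPCA rested on 1 transcript without a name, over 17.1% of its exon bases. A transcript under 200 bp could go unlisted in late stimulated, so the 0 there need not mean absence.

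**Figure D1:**
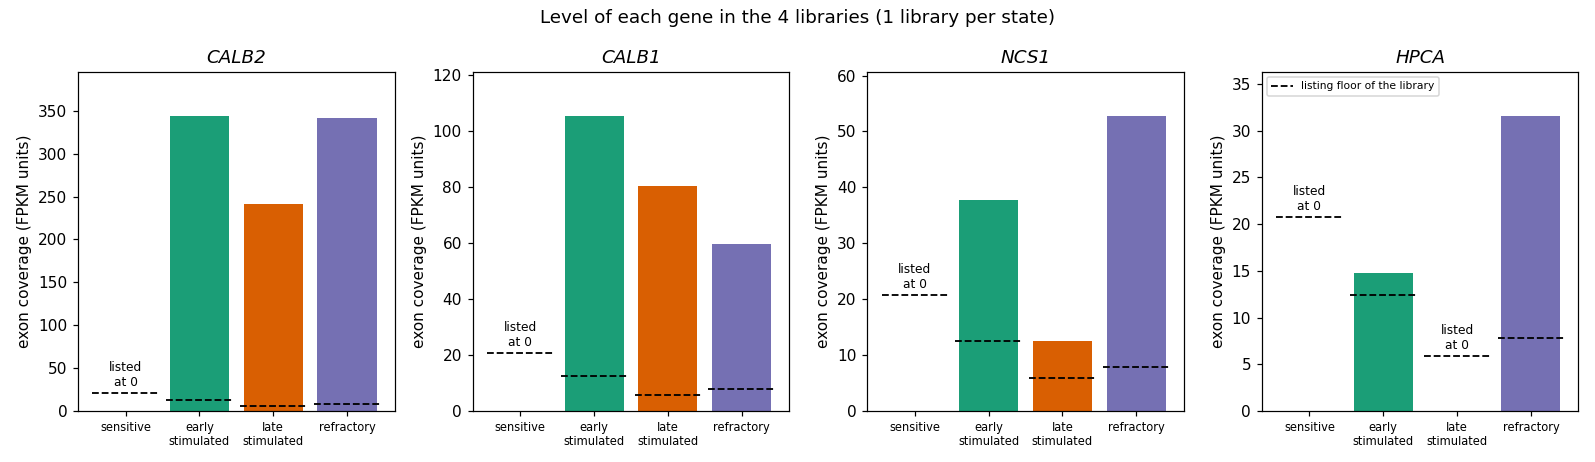
Exon coverage in FPKM units (vertical axis) of CALB2, CALB1, NCS1 and HPCA in the 4 libraries (horizontal axis), 1 bar per library and no error since each state has 1 library. The dashed line is each library's listing floor, from 5.84 to 20.8 FPKM, and all 4 genes are listed at 0 in the library labelled sensitive.

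The order of levels was CALB2, CALB1, NCS1, HPCA in early stimulated, late stimulated and refractory alike. There is no spread between replicates to set the neighbours in this order against. CALB1 and NCS1 were closest in refractory, at a ratio of 1.13. CALB2 stayed first in each of these libraries under every way of averaging the exons that was tried, while under its own name it had no transcript in early stimulated. The order below it did not hold: without each gene's longest exon, HPCA stood at 146 FPKM in refractory, above CALB1 at 100.03 and NCS1 at 42.0 FPKM.

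The exons of HPCA differed widely in coverage. The first exon of HPCA, with 941 of its 1200 bp, had 0.81 FPKM in early stimulated and none in refractory. Its 106-bp second exon was at 133 FPKM in early stimulated and 277 FPKM in refractory, and its 153-bp last exon at 18.7 and 55.7 FPKM. Both covered exons were higher in refractory, at ratios of 2.09 and 2.98.

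Exon 1 was the lowest exon of all 4 genes in every library that covered them, tied at 0 with exons 2 and 3 for NCS1 in late stimulated. In CALB1 it had 6.32, 0 and 2.21 FPKM in early stimulated, late stimulated and refractory, against 96.3, 73.6 and 52.1 FPKM in the last exon. In CALB2 it had 0, 0.13 and 0.48 FPKM against 252, 206 and 329 FPKM in the last exon. In NCS1 it had 0.13, 0 and 1.11 FPKM against 7.98, 24.2 and 24.1 FPKM. This was common in the files: over all genes with 3 or more exons and a covered last exon, the share with a first exon below 0.1 times the last was 53.4%, 53.5% and 50.6% in these libraries. The part of RNA quality, library chemistry or the use of another species' genome in this was not tested.

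The profile of CALB2 over its exons was much alike from library to library. The 72-bp exon 10 was at 2139, 1517 and 1206 FPKM in early stimulated, late stimulated and refractory, and the 90-bp exon 3 at 946, 542 and 1225 FPKM. The 78-bp exon 6 between them was at 35.1, 4.53 and 20.6 FPKM. The rank correlation over the 10 exons covered in both was 1 between early and late stimulated and 0.82 between early stimulated and refractory, and 0.86 over 11 exons between late stimulated and refractory. In CALB1 it was 0.73 over 9 exons between early and late stimulated, 0.92 over 10 between early stimulated and refractory and 0.60 over 9 between late stimulated and refractory. These are descriptions over exons of 1 gene, which share sequence and length in every library. The highest exon of CALB2 exceeded its median exon 8.50-fold, 7.38-fold and 6.92-fold. The median of that ratio was 2.86, 2.53 and 3.37 over 550, 585 and 568 genes with 6 or more exons. CALB1 was more even, with 1.67-fold, 1.75-fold and 3.53-fold. NCS1 had 4.12-fold, 34.5-fold and 3.43-fold, the second in late stimulated, where its first 3 exons were not listed.

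**Figure D2:**
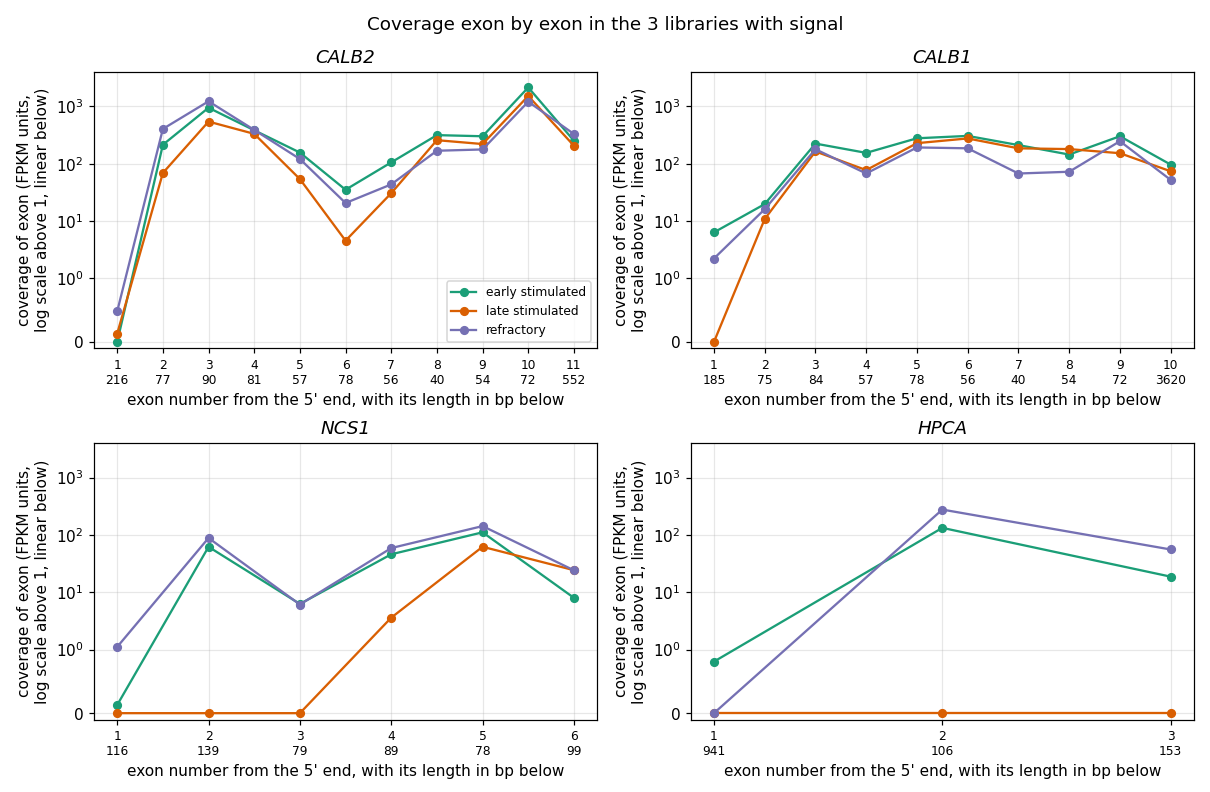
Coverage of each exon in FPKM units (vertical axis, log scale above 1 and linear below) against exon number from the 5′ end (horizontal axis, with length in bp), for the libraries labelled early stimulated, late stimulated and refractory. Points are single exons. The first exon is lowest in each gene, or tied at 0 for NCS1 in late stimulated, and exon 10 of CALB2 reaches 2139 FPKM in early stimulated.

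Exon by exon, the differences of the calbindins between libraries were mixed in size. In CALB1 all 10 exons were lower in refractory than in early stimulated, with ratios from 0.319 to 0.819 and a median of 0.574. In CALB2 all 10 exons covered in both were lower in late than in early stimulated, from 0.129 to 0.866 with a median of 0.641. Between refractory and early stimulated CALB2 split, with 4 exons higher and 6 lower, so the nearly equal gene levels hide exons that went both ways. Among the higher ones was the 552-bp exon 11, at 329 FPKM in refractory against 252 FPKM in early stimulated. Of its bases 22.3% were listed in early stimulated and 100% in refractory. The direction of that exon, and the near equality of the gene levels, thus depend on the unlisted bases. Of the 11 CALB2 exons 8 were higher in refractory than in late stimulated. The 6 exons of NCS1 were higher in refractory than in early stimulated in 5 cases, with a median ratio of 1.36.

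Calbindin and calretinin share their gene structure in these annotations. A run of 6 exons had the same lengths in the same order from the 5′ end, 57, 78, 56, 40, 54 and 72 bp, as exons 4 to 9 of CALB1 and exons 5 to 10 of CALB2. Of 606 genes with at least 6 exons, these 2 held this run, and 31 genes shared some run of 6 exon lengths with another gene. Over these 357 bp CALB2 stood at 561 against 239 FPKM for CALB1 in early stimulated, 382 against 184 FPKM in late stimulated and 319 against 150 FPKM in refractory. CALB2 was thus higher by 2.35-fold, 2.08-fold and 2.13-fold over paired exons, less than over the whole genes. The lead did not hold in each pair. By the median over the 6 pairs the ratio of CALB2 to CALB1 was 1.25, 0.96 and 2.12. CALB1 was the higher in 2, 3 and 2 of the pairs. The 78-bp and the 56-bp exons were lower in CALB2 in each of the 3 libraries, with ratios down to 0.020, and the 72-bp exon was higher by 4.89-fold to 9.97-fold. Reads that fit both paralogs could be split between them, which cannot be checked from these files.

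**Figure D3:**
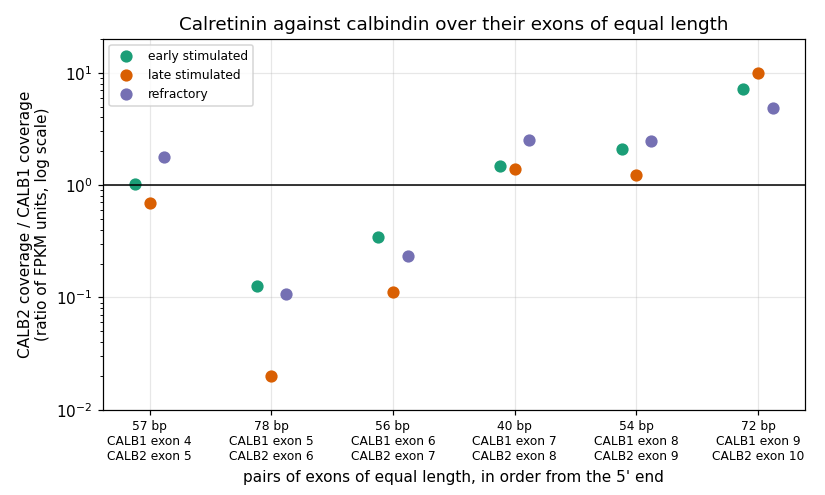
Ratio of CALB2 to CALB1 coverage (vertical axis, log scale) for the 6 pairs of exons of equal length (horizontal axis, from the 5′ end), 1 point per library. The pair of 78 bp lies lowest, at 0.020 to 0.126, and the pair of 72 bp highest, at 4.89 to 9.97.

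The files differed in whether these loci carried a name. CALB2 was listed under its name in late stimulated and refractory, CALB1 and NCS1 in early stimulated and refractory, and HPCA in early stimulated. Where the name was missing but the exons were covered, each spliced transcript followed part of the reference splicing. In late stimulated a transcript of 9 exons over CALB1 had 8 introns, all among the 9 of the reference, beside an unspliced one of 86.2 FPKM over the last exon. In early stimulated a transcript of 10 exons over CALB2 had 9 introns, all among the 10 of the reference. The HPCA transcript in refractory held 1 of 2 reference introns and the NCS1 transcript in late stimulated 2 of 5. No named gene overlapped the exons of any of the 4 genes, and counting transcripts on any strand left their levels as they were.

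The first comparison of the design sets early stimulated against the library labelled sensitive. These libraries differ in more than the label, since the photoreceptor markers summed to 0 in sensitive and to 602 FPKM in early stimulated. With 1 library per label, state cannot be told apart from tissue or cell mix. Their part in the differences from sensitive, here and below, was not tested. In early stimulated all 4 genes were higher than in the library labelled sensitive by at least 1 in log2(FPKM + 1), the difference at which a gene is counted here, or 2-fold once the pseudocount of 1 is added. By that count 34.5% of 1782 genes were higher and 24.9% lower. Nothing is read from the members' count, since they were picked with their levels in these libraries already known. The differences of the members were 8.43 for CALB2, 6.73 for CALB1, 5.28 for NCS1 and 3.98 for HPCA. They depend on what the 0 in sensitive stands for. With that library at its floor of 20.8 FPKM, they were 3.99, 2.29, 0.83 and -0.47. A difference of 1 is thus not measurable for NCS1, and no direction for HPCA, whose 14.7 FPKM lay under that floor.

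Late stimulated and refractory were set against the same sensitive library, so these comparisons share it. In late stimulated the 3 covered genes were higher, beside 34.0% of 1770 genes higher and 28.3% lower, by 7.92 for CALB2, 6.34 for CALB1 and 3.77 for NCS1. With sensitive at its floor the values were 3.48, 1.90 and -0.68. For NCS1 this sets a floor per transcript against a gene average. Its listed transcript in late stimulated had 36.7 FPKM, above that floor, over 34.3% of the exon bases. No direction for NCS1 is therefore read from the -0.68. HPCA was at 0 in both libraries and was not counted. In refractory all 4 were higher, beside 36.5% of 1806 genes higher and 24.4% lower, by 8.42 for CALB2, 5.93 for CALB1, 5.75 for NCS1 and 5.02 for HPCA. At the floor these were 3.98, 1.48, 1.31 and 0.58. For HPCA too this sets a floor per transcript against a gene average. Its listed transcript in refractory had 186 FPKM, above that floor, over 17.1% of the exon bases. No size of the HPCA difference is therefore read from the 0.58.

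The next comparison asks what changed from early to late stimulation. The calcium buffers stayed within 1, at -0.51 for CALB2 and -0.39 for CALB1, and both sensors were lower, NCS1 by -1.51 and HPCA by -3.98. These 2 of 4 stand beside 11.2% of 1682 genes counted lower and 10.3% higher. With HPCA at the late stimulated floor of 5.84 FPKM its difference was -1.20. That floor is no bound on HPCA, since a transcript under 200 bp could go unlisted at a higher coverage. The NCS1 value turns on the unlisted exons: over the 206 exon bases listed in each library with coverage, it stood at 59.7 FPKM in early stimulated, 36.7 FPKM in late stimulated and 80.6 FPKM in refractory. The NCS1 difference was then -0.69, and that of CALB2 over its 728 such bases was -0.96. Over these bases NCS1 was thus within 1 as the buffers were. CALB1 over its 2461 such bases was at 120, 141 and 70.1 FPKM, so that late stimulated was then the highest library.

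From late stimulated to refractory the same 2 sensors were higher, NCS1 by 1.98 and HPCA by 5.02, or 2.25 with late stimulated at its floor. Here too that floor is no bound on HPCA. The size for NCS1 turns on the exons used. It was 1.11 over the exon bases listed in each library with coverage, 1.31 without the longest exon and 3.93 by the median over exons. Both buffers stayed within 1, CALB2 at 0.50 and CALB1 at -0.42. By the median over exons CALB1 passed it, at -1.17, and CALB2 turned to -0.21. Of 1714 genes 18.6% were counted higher and 10.6% lower. Refractory against early stimulated closed the series, with HPCA higher by 1.05, beside 12.9% of 1719 genes higher and 9.37% lower. That value fell to 0.97 when libraries were scaled by the median of ratios and to 0.89 with a pseudocount of 5. NCS1 at 0.47, CALB2 at -0.01 and CALB1 at -0.81 stayed within 1, and CALB1 reached -1.37 when the median over exons was taken. These comparisons share libraries with each other and are not independent.

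**Figure D4:**
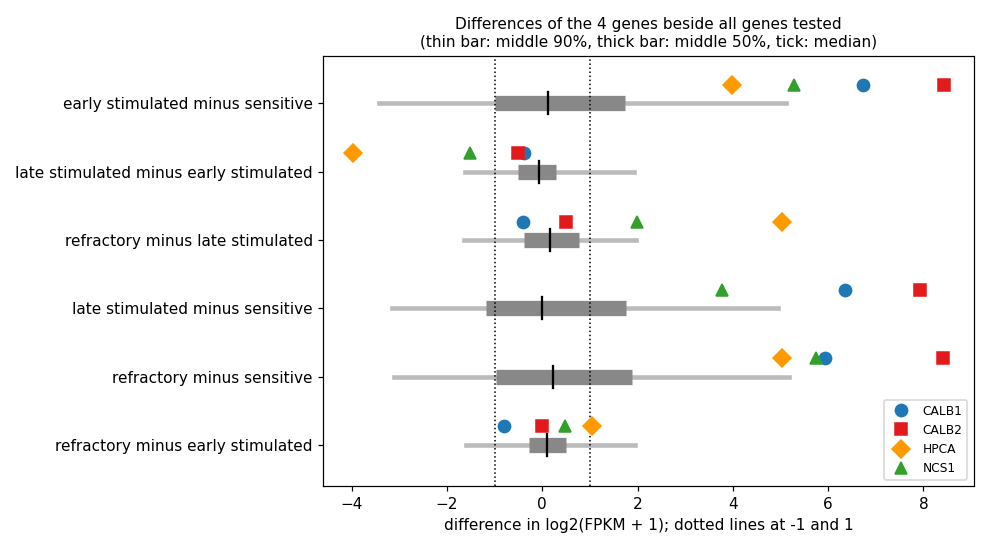
Difference in log2(FPKM + 1) (horizontal axis) of CALB1, CALB2, HPCA and NCS1 in the 6 comparisons (vertical axis). Grey bars give the middle 90% and the middle 50% of all genes tested and the tick their median, with dotted lines at -1 and 1. The genes lie right of 1 in each comparison with the library labelled sensitive, where they were at 0, and HPCA, at 0 in late and sensitive alike, is not drawn for that pair.

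Other genes of calcium binding, transport and signalling were taken from 7 lists of 170 genes, of which 166 are not among the 4 described, and 14 of these carried a name. In early stimulated 12 of the 14 were higher than in sensitive and none lower, beside 34.5% and 24.9% of all genes tested, with a median difference of 4.08, against 0.11 over all genes tested. Of these 14 genes, 8 were listed at 0 in sensitive, so their differences rest on what lies under its floor, while 6 were covered in all 4 libraries. Of these 6, CALM3, ATP2B1, PPP3CB and PCP4 were counted higher in early stimulated than in sensitive, and MCU and AP2M1 were within 1. Over all genes covered in both of those libraries, 218 of 1203 were higher and 261 lower. Of the 14, 0 were higher and 2 lower in late stimulated against early stimulated, with a median of -0.06. In refractory against late stimulated 3 were higher and 1 lower. Over all genes 11.2% were lower in the first of these comparisons and 18.6% higher in the second, so these small counts lie near the background. The lists were written with earlier results of these data known.

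Among EF-hand sensors, 5 of 30 list genes were named, HPCA and NCS1 included. GUCA1A, which activates guanylate cyclase in photoreceptors when calcium falls, was at 0, 112, 24.9 and 76.1 FPKM in the order of states. Its relative GUCA1C was at 0, 136, 149 and 188 FPKM. GUCA1A was lowest in late stimulated of the covered libraries, as NCS1 was, and GUCA1C was not. CALM3, a calmodulin gene used by nearly every cell, was covered in all 4 libraries, at 311, 790, 1438 and 1146 FPKM.

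Among buffers and S100 proteins, 4 of 20 were named. PVALB, the buffer parvalbumin of fast muscle and of some neurons, was at 0, 16.7, 12.8 and 14.1 FPKM, and S100Z at 0, 5.93, 3.55 and 11.1 FPKM. All of these lay under the sensitive floor of 20.8 FPKM. Set against that floor, no direction can be given for either gene. SPOCK3, a secreted calcium-binding proteoglycan and the 1 named gene of 17 secretory-pathway proteins, was at 0, 199, 184 and 175 FPKM. 

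Transport genes were named in 4 of 50 cases. The plasma membrane calcium pump ATP2B1 was covered in every library, at 32.4, 215, 248 and 171 FPKM, and was also the 1 named gene of 15 in the list of vitamin D and epithelial calcium transport. CACNG2, which accompanies AMPA receptors at synapses, was at 0, 52.1, 53.8 and 62.6 FPKM. Of the mitochondrial uniporter, the pore subunit MCU was at 49.6, 29.5, 21.0 and 29.3 FPKM and its regulator MICU3 at 0, 46.5, 62.8 and 29.9 FPKM. MCU was thus the 1 calcium gene here that was highest in sensitive. It was within 1 of sensitive in early stimulated and refractory, at -0.73 and -0.74, and past it in late stimulated, at -1.20.

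Of calmodulin's partners 3 of 25 were named. PCP4, a small calmodulin-binding protein of neurons, was at 51.3, 839, 831 and 1108 FPKM, and the calcineurin catalytic subunit PPP3CB at 23.0, 93.7, 144 and 101 FPKM. GAP43, the calmodulin-binding protein of growing axons, was at 0, 21.6, 9.06 and 23.5 FPKM. Of 14 partners of NCS1 and hippocalcin, AP2M1, a subunit of the endocytic adaptor, was named, and stood at 283, 420, 333 and 576 FPKM, within 1 of sensitive in early and late stimulated and past it in refractory, at 1.02.

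**Figure D5:**
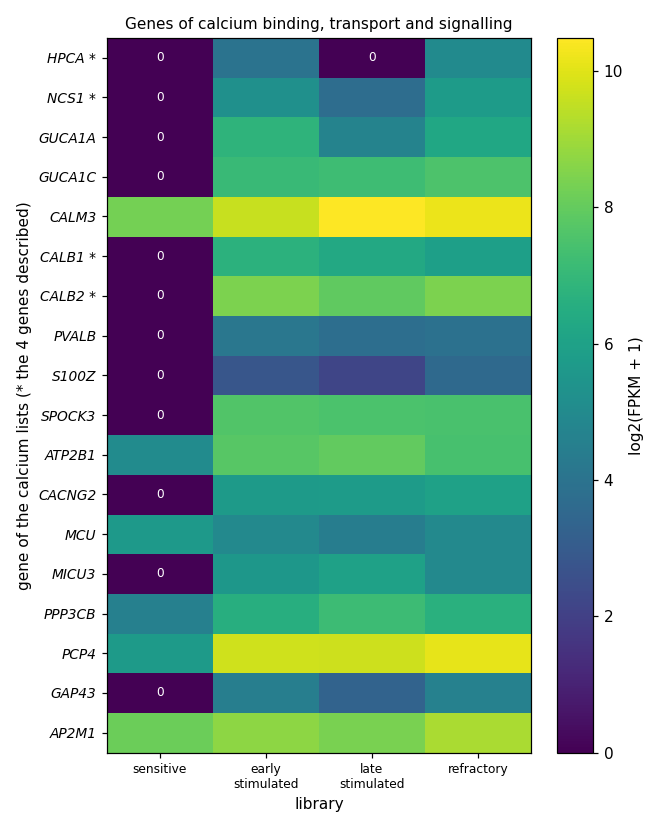
Levels as log2(FPKM + 1) (colour) of the 18 named genes of the 7 calcium lists (vertical axis) in the 4 libraries (horizontal axis), with 0 written where a gene is listed at 0. Stars mark the 4 genes described, which are at 0 in sensitive together with 8 of the other 14.

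Markers of retinal cells were listed at 0 in sensitive, as the 4 genes were, and differed among themselves in the other libraries. Of 7 photoreceptor markers 4 were named, and their summed level was 0, 602, 348 and 673 FPKM. Each of the 4 was lowest in late stimulated of the 3 libraries with coverage, but by unlike amounts. Against early stimulated, PDC at -1.33 and GUCA1A at -2.13 passed a difference of 1 in log2(FPKM + 1). GNAT2 at -0.74 and PDE6H at -0.04 stayed within it. NCS1 and HPCA were also lowest in late stimulated of those 3 libraries. CALB2 was too, except by the median over exons, and CALB1 was not. GAD1, the GABA-synthesising enzyme and the 1 named of 5 amacrine markers, was at 0, 169, 144 and 91.1 FPKM. Like CALB1 over all its exons, it was highest in early stimulated and lowest in refractory of the covered libraries. Over the bases listed in all 3 of these, CALB1 was highest in late stimulated instead. With 1 named gene and the tissue not established, no cell type is read from GAD1. RLBP1, the 1 named of 2 Mueller glia markers, was at 0, 24.7, 8.32 and 29.6 FPKM. POU4F2, the 1 named of 7 ganglion cell markers, did not pass 1.94 FPKM, and none of 4 horizontal and 4 bipolar cell markers carried a name. In bulk RNA, fewer cells of a type and less RNA per cell cannot be told apart. The part of such cells in the levels of the 4 genes was not tested.

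Presence over the libraries was shared with other genes. CALB1, CALB2 and NCS1 were covered in all libraries but sensitive, as were 356 of 2239 genes, or 15.9%. HPCA was covered in early stimulated and refractory alone, as were 40 genes, or 1.79%. The 4 genes were not each other's nearest by the distance of log2(FPKM + 1) over the 4 libraries, among 2234 covered genes. This distance counts differences in level as well as in pattern, so a large value need not mean an unlike pattern. CALB1 and CALB2 were covered in the same libraries, yet lay 3.40 apart, with CALB2 the higher in each. For CALB1 the nearest included GJD2, a gap-junction protein of neurons, at a distance of 0.65 and SLC1A3, a glutamate transporter of glia, at 0.72. For CALB2 they were the endophilin SH3GL2 at 0.49 and the neuronal TAGLN3 at 0.62, followed by a gene without a symbol. For NCS1 the nearest was TMEM108 at 0.73. HPCA was nearest to a gene known by its ID, ENSFALG00000013223, at 0.24, followed by RPS19BP1 at 1.10. Between the members the closest were CALB1 and NCS1 at 2.97, and 103 genes lay nearer to CALB1 than NCS1 did.

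Named neighbours on the scaffolds did not share the absence in sensitive throughout. TMEM55A, 326 kb from CALB1, was at 44.8, 50.4, 57.1 and 41.0 FPKM. NUDT21, an RNA-processing factor 764 kb from CALB2, was at 110, 54.9, 54.8 and 67.4 FPKM. Around NCS1, TOR1A at 199 kb was at 9.69, 1.33, 5.64 and 2.88 FPKM and FAM78A at 373 kb at 0, 10.5, 9.91 and 9.27 FPKM. Near HPCA, SNORA55, a small nucleolar RNA at 268 kb, did not pass 6.44 FPKM. SNORA76, 52.1 kb from CALB2, did not pass 0.89 FPKM. These are among the nearest genes with a symbol in the files, and unnamed genes may lie closer.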

How the data were processed

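Per the file headers, the authors ran StringTie 1.3.3b on 1 library at a time, with the flycatcher annotation (Ensembl 89, assembly FicAlb_1.4, another songbird species) as a guide. The submitters' processing notes name Trimmomatic, with the aligner not given in the sources used here. Each deposited file gives FPKM and TPM per transcript and mean coverage per transcript and exon. None is a read count, so no count-based interval applies, and the files record no scaling between libraries.

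Python 3.11.15 and numpy 2.4.6 were used. A gene's exons were those of its reference-matched transcripts in any file, and its value was their coverage by transcripts on the same strand or with none, per exon base and per aligned base. Aligned bases follow from coverage divided by FPKM, which was constant within a file. In each comparison a gene was kept if either library reached 1 FPKM, and differences were taken on log2(FPKM + 1), a scale that understates low genes. With 1 library per state there was no test. In a check of the code 200 genes were changed, which bears on the code and not on the levels reported.

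The members, lists and alternatives were chosen with earlier results of these data known. The rule for named genes took the members, at most 6 genes per list, the 3 genes nearest in pattern to each member and the nearest gene with a symbol on each side. Some genes that this rule names are not reported here. Sequences were not used here.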

Additional observations from a re-analysis of the deposited data

How the results depend on the processing

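Pseudocounts of 0.1 and 5, median-of-ratios scaling, counting any strand, the listing floor in place of 0 and values under the genes' own names were planned, and 3 ways of averaging exons were added after the data were seen. With uncovered genes at the floor, members past 1 fell from 4 to 2 for early stimulated against sensitive. There HPCA reversed to -0.47, because the floor exceeds its level. NCS1 reversed to -0.68 for late stimulated against sensitive, where the floor exceeds its gene average but not its listed transcript, at 36.7 FPKM. Under the genes' own names, members past 1 were 4 (1 higher, 3 lower) for late against early stimulated, 1 for late stimulated against sensitive and 2 for refractory against early stimulated, with HPCA reversed to -3.98 in the last, because a covered gene without its name counts as 0. For late against early stimulated, members past 1 were 1 in place of 2 over exon bases listed in each covering library and 1 without the longest exon. For refractory against early stimulated they were 0 with a pseudocount of 5, 0 with scaling and 2 with the median over exons, in place of 1. Both counts of 0 came from HPCA, which moved from 1.05 to 0.89 with that pseudocount and to 0.97 with scaling. For late against early stimulated the counts fell through NCS1, at -0.69 over the listed bases and -0.85 without the longest exon. The median over exons added CALB1 for refractory against early stimulated, at -1.37. Why exon averaging moved CALB1 was not tested. A pseudocount of 0.1 and counting any strand kept all 23 single-gene calls. Dropping the filter on low values changed no count over all genes, since a gene under 1 FPKM in both libraries cannot differ by 1. No paired analysis was possible because each state has 1 library. Depth limits the sensitive library most, where levels under 20.8 FPKM may go unlisted.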

Other observations

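Single-exon transcripts without a strand were listed just beyond the annotated end of NCS1, 1287 to 1314 bp past it. They stood at 77.6 FPKM in early stimulated, 86.0 FPKM in late stimulated and 77.6 FPKM in refractory, with 276 to 304 bp each, and none was listed in the library labelled sensitive. Their levels lay close together across the 3 libraries, while the exons of NCS1 were at 37.8, 12.6 and 52.8 FPKM. A further one of 297 bp, 2635 bp past the end, was at 62.4 FPKM in early stimulated. None carries a gene name. In the library labelled sensitive a transcript of 9 exons on the opposite strand ended 3873 bp from CALB1, at 37.1 FPKM, so that region was not without coverage there.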
